A study of Mus musculus with 34 samples.

Results

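PROX1 (Prospero homeobox 1) is a homeodomain-related transcription factor of hepatocytes and lymphatic endothelium that is known in liver as a corepressor partner of nuclear receptors. HDAC3 is the histone deacetylase subunit of the NCoR corepressor complex, and HNF4α is the nuclear receptor that defines the hepatocyte program. The sites described here are the places where PROX1 was listed and neither of these proteins was: lines of the PROX1 peak list with less than 50% of their length covered by an HDAC3 peak and no base shared with an HNF4α peak. They are called PROX1-alone sites and number 4408 of the 27423 PROX1 peaks, or 16.1% of the list and 59.7% of the 7384 PROX1 peaks without HDAC3.

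The peaks came from chromatin immunoprecipitation with sequencing (ChIP-seq) of whole liver from male C57B/6 mice of 10 weeks, collected at zeitgeber time 10. PROX1 and HDAC3 had 3 libraries each, labelled as control. HNF4α had 2 libraries from mice with floxed *Hnf4α* alleles, which the study describes as carrying AAV8 TBG Egfp, a virus with a hepatocyte promoter that expresses no Cre. The authors pooled the libraries of each factor before they called peaks, so no spread between livers can be given, and every comparison below is over peaks. Whole liver holds several cell types, and PROX1 is also a protein of lymphatic endothelium, so the cell of origin of a peak cannot be told from these lists.

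The sites were chosen by the positions of measured peaks, and absence from a list is not absence of protein. The lists of HDAC3 and PROX1 give positions without reads, so a site under the limits of the HDAC3 or HNF4α call cannot be told from a site with none. No PROX1-alone site touched any of the 21247 HDAC3 peaks (0 of 4408), while 62 members had one within 100 bp and 383 within 500 bp. Empty lines divide both lists into unlabelled blocks, and the part of that division in the count of 0 was not tested. For HNF4α, which had 24253 peaks, 78 members had a peak within 100 bp and 461 within 500 bp. On the other side of the rule, 14 of the 2976 PROX1-HNF4α sites without HDAC3 shared 20 bp or less with their HNF4α peak, and the median shared length there was 147 bp. HNF4α peaks within 500 bp of a member had a median HOMER score of 42.9, beside 37.2 for the peaks at PROX1-HNF4α sites without HDAC3 and 41.9 for the whole list.

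The sites differ widely in what they carry, and a few of the 200 bp windows are printed to show this, with coordinates of mm9 and the forward strand of the reference genome. Capitals mark matches to the consensus sequences of HNF4, C/EBP, the glucocorticoid receptor (GR), HNF1 and FOXA, and to the 6-mer ATCAAT, on either strand. A match is a description of letters and not a site shown to be bound. The first 4 are the sites nearest a transcription start site (TSS) for the 4 genes with the most PROX1-alone sites, leaving out windows that touch an annotated exon. At *Tsc22d3* the window chrX:137078476-137078675 is centred 850 bp upstream of a TSS and holds a GR match. At *Rere*, chr4:149656821-149657020 lies in an intron 1166 bp past a TSS and holds the 6-mer. At *Fkbp5*, chr17:28655867-28656066 lies 1498 bp upstream of the TSS and holds a GR and an HNF4 match. At *Ptplb*, chr16:35033978-35034177 lies in an intron 11571 bp past the TSS and holds a GR match close to an HNF4 match.
Tsc22d3: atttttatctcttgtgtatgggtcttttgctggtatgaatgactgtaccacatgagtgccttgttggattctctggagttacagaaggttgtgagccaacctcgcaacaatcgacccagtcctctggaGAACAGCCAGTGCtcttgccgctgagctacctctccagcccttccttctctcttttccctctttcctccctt
Rere: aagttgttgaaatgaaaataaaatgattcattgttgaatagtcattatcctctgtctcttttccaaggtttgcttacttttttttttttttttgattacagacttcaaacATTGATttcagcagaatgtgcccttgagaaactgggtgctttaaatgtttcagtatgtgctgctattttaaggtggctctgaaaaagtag
Fkbp5: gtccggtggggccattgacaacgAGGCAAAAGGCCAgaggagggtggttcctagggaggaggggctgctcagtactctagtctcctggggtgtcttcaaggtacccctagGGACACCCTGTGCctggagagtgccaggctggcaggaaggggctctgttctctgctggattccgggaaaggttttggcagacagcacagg
Ptplb: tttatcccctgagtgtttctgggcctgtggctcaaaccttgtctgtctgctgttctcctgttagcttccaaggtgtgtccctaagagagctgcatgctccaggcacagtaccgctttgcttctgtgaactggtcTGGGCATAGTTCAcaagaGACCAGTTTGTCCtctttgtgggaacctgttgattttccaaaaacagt

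Further windows come from genes that had PROX1-alone sites and no HDAC3 or HNF4α peak at all between 50 kb upstream of the TSS and 2 kb past the end. The *Ebp* and *Porcn* genes adjoin on chromosome X, and the window chrX:7784026-7784225, 475 bp upstream of *Porcn*, carries an HNF1 and a C/EBP match. The window at *Gm6807*, chr19:45532272-45532471, is intronic to an overlapping gene and carries the 6-mer beside an HNF4 match, 94.6 kb from the nearest HNF4α peak. The intronic window of *Slc24a4*, chr12:103389529-103389728, carries none of the marked matches.
Porcn: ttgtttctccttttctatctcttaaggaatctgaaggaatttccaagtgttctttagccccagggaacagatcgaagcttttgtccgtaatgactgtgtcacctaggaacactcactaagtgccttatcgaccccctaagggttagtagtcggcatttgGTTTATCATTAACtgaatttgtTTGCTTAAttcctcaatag
Gm6807: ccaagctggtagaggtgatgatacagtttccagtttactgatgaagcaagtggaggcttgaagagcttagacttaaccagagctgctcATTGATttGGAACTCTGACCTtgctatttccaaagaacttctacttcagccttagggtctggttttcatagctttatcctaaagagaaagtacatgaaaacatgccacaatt
Slc24a4: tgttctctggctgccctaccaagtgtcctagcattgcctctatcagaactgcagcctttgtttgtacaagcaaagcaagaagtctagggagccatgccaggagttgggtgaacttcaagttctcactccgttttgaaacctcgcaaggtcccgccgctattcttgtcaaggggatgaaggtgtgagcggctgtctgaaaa

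The sites closest to the HNF4 consensus show that a near-perfect HNF4 sequence can stand without a listed HNF4α peak. The 3 windows lie 1267 bp upstream of *Dcbld1* (chr10:51952058-51952257), 1328 bp upstream of *Chpt1* (chr10:87968046-87968245) and 7922 bp upstream of *Cpd* (chr11:76668342-76668541). Their nearest HNF4α peaks were 188 kb, 2.37 kb and 53.7 kb away.
Dcbld1: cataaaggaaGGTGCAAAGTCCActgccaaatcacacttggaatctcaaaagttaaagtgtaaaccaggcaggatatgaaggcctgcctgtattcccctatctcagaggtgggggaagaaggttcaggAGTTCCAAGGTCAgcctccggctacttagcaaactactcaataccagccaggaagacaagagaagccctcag
Chpt1: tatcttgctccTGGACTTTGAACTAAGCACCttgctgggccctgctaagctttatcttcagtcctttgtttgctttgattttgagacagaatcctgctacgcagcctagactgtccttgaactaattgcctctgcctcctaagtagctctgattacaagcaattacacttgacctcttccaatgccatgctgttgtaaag
Cpd: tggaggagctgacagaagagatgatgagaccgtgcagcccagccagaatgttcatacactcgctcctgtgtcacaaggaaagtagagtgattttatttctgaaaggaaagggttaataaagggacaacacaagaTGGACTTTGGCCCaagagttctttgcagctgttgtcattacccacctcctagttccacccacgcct

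The 3 windows with the most kinds of match had 9, 9 and 8 of the 30 consensus sequences searched and are all intergenic. They lie 57.95 kb past *Enc1* (chr13:98068910-98069109), 34.97 kb upstream of *Msx1* (chr5:38250694-38250893) and 42.01 kb upstream of *Raph1* (chr1:60665855-60666054). Many of these kinds share letters, since HNF4, the direct repeat DR1 and the nuclear receptor core AGGTCA overlap.
Enc1: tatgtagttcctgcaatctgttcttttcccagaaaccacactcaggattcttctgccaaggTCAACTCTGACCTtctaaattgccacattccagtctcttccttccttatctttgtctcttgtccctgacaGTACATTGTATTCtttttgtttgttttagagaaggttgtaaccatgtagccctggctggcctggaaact
Msx1: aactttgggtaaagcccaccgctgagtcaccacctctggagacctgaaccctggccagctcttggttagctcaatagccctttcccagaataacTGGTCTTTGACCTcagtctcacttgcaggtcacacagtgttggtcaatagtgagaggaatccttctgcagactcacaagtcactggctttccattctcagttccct
Raph1: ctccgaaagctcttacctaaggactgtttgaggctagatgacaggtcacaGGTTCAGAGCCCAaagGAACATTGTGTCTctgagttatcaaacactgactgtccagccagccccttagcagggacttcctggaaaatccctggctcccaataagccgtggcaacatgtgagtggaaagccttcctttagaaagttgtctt

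A last set was chosen after the values below were seen, to show the 6-mer and the GR palindrome described next. An intronic window of *Nrxn3* (chr12:91115169-91115368) and an intergenic window (chr2:8890031-8890230) carry the 6-mer near their centre. The intergenic window is labelled by its nearest gene, *Gata3*, whose TSS is 910 kb away. The nearest HNF4α peaks of the 2 windows are 1455 kb and 911 kb away. The promoter window of *Fam107a* (chr14:9142318-9142517) carries a GR palindrome without a mismatch. The window near *Ldlrad1* (chr4:106892265-106892464) has 9 copies of the 6-mer in a tandem repeat.
Nrxn3: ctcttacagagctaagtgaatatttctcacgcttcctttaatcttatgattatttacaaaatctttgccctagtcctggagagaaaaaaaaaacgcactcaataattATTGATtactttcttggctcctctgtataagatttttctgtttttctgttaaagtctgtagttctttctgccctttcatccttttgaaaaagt
Gata3: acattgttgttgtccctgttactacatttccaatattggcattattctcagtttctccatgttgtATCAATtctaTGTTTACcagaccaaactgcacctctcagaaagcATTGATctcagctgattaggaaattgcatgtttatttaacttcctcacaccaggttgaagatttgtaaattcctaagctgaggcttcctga
Fam107a: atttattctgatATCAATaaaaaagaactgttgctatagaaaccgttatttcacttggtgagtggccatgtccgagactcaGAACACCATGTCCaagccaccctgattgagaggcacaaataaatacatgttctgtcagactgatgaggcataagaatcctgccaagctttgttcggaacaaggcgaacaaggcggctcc
Ldlrad1: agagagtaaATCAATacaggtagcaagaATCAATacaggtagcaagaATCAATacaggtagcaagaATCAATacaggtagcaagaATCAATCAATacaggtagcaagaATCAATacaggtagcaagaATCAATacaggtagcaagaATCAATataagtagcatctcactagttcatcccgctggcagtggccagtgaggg

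Among 6-mers more frequent at PROX1-alone sites than in the neighbouring classes, the largest difference was that of ATCAAT, whose letters lie in the recognition sequence of ONECUT factors such as HNF6, liver homeodomain regulators of hepatocyte and bile duct genes. It occurred in 1197 members, 27.2% (95% CI 25.9 to 28.5), against 21.4% (95% CI 19.9 to 22.9) of the PROX1-HNF4α sites without HDAC3 and 16.3% (95% CI 15.4 to 17.2) of the 6577 HDAC3-PROX1 sites without HNF4α. The 13462 sites with all 3 factors had 19.3%. In 8450 windows 2 kb to either side of the members the share was 8.07%. The difference from PROX1-HNF4α sites was 5.78 percentage points (95% CI 3.80 to 7.74, chi-square adjusted p = 1.39e-06) and that from HDAC3-PROX1 sites 10.9 points (95% CI 9.27 to 12.4, adjusted p = 7.38e-40). Members had the higher share on 19 and 20 of 20 chromosomes with at least 20 peaks of each class. These are Pearson chi-square tests over peaks with Benjamini-Hochberg adjustment over all 6-mers, intervals are Wilson and Newcombe intervals, and neighbouring peaks are not independent. In windows of at least 45% GC the difference from PROX1-HNF4α sites was 3.92 points with an chi-square adjusted p of 0.0531, and that from HDAC3-PROX1 sites stayed past the threshold at 7.70 points.

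The 6-mer carried a longer pattern with it. Of its 1507 copies in members, 60.1% were preceded by A, against 33.0% of 712 copies in the flanks, and 43.7% were followed by A, against 26.3%. T stood before 5.97% of the copies in members and before 24.2% in the flanks. The 6-mers AATCAA and TATTGA, which overlap it, stood in 26.0% and 22.3% of members. AATCAA was present in 20.7% of PROX1-HNF4α sites (chi-square adjusted p = 1.61e-05) and 17.8% of HDAC3-PROX1 sites (adjusted p = 1.24e-21). TATTGA was present in 18.04% (chi-square adjusted p = 4.62e-04) and 15.6% (adjusted p = 1.44e-16). Against PROX1-HNF4α sites the AATCAA call was lost in windows of at least 45% GC (3.52 points) and under 45% GC (5.27 points). The TATTGA call was lost at 45% GC or more (1.56 points) and when an HNF4α peak had to cover 50% of a site (2.43 points). One copy was the rule, as 953 members had 1 copy, 187 had 2 and the rest of the 1197 had 3 or more. Without sites of 3 or more copies the differences were 5.36 and 10.1 points. The consensus ATCGATT, which had been listed for HNF6, was rare: it occurred in 2.61% of members, 2.18% of PROX1-HNF4α sites (chi-square adjusted p = 0.311), 1.52% of HDAC3-PROX1 sites (adjusted p = 1.48e-04) and 0.308% of flanks.

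**Figure D1:**
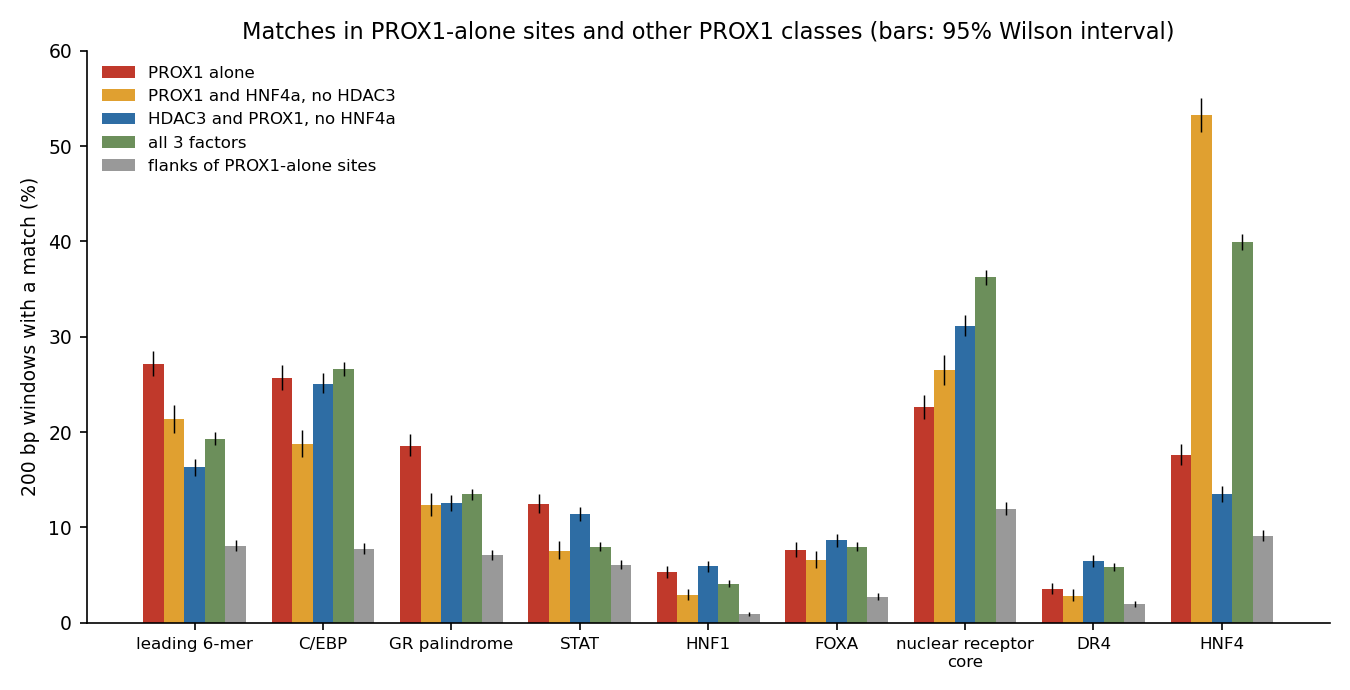
Percent of 200 bp windows with a match (vertical axis) for 9 sequences, ATCAAT being the leading 6-mer, in the 4 classes of PROX1 peaks and in flanks of PROX1-alone sites; error bars are 95% Wilson intervals over peaks. PROX1-alone sites (red) had the highest share of the 6-mer ATCAAT, at 27.2%, and of the GR palindrome, at 18.6%, and HNF4 matches were at 17.6% there against 53.3% at PROX1-HNF4α sites without HDAC3.

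The GR palindrome was also more frequent than in both neighbouring classes. It is GNACA and TGTNC separated by 3 bases, searched with up to 1 mismatch, and is the response element of the glucocorticoid receptor that the androgen and mineralocorticoid receptors share. It was found in 819 members, 18.6% (95% CI 17.5 to 19.8), against 12.4% of PROX1-HNF4α sites without HDAC3, 12.5% of HDAC3-PROX1 sites without HNF4α, 13.5% of sites with all 3 factors and 7.11% of flanks. The differences were 6.21 points (95% CI 4.55 to 7.85, chi-square adjusted p = 4.72e-12) and 6.05 points (95% CI 4.66 to 7.46, adjusted p = 1.61e-17), with the higher share at members on 20 and 18 of 20 chromosomes. Palindromes without a mismatch stood in 155 members, 3.52% (95% CI 3.01 to 4.10), against 1.08% (95% CI 0.763 to 1.51) and 1.67% (95% CI 1.39 to 2.01) of the same classes and 0.296% of flanks.

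GR matches had a lower share in members with the 6-mer than in those without. Of the 1197 members with ATCAAT, 12.8% (95% CI 11.0 to 14.8) held a GR match, and of the 3211 without it 20.7% (95% CI 19.4 to 22.2) did. The same members with the 6-mer had a GC content of 42.1% on average, against 45.8% in those without, and the part of base composition in this was not tested. The shares with and without the 6-mer were 13.3% and 19.2% for HNF4, 18.8% and 24.0% for the nuclear receptor core, 5.18% and 8.502% for FOXA, 10.4% and 13.3% for STAT, 23.5% and 26.5% for C/EBP and 12.03% and 13.8% for NFI. For HNF1 they were close, at 5.10% and 5.36%. Together, 3451 members, 78.3%, held at least 1 of 7 matches (the 6-mer, C/EBP, GR, HNF1, FOXA, STAT and the nuclear receptor core), against 37.1% of flanks. The set was put together after the shares were seen, each being above the flanks by itself, and its share in the other classes was not computed.

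**Figure D2:**
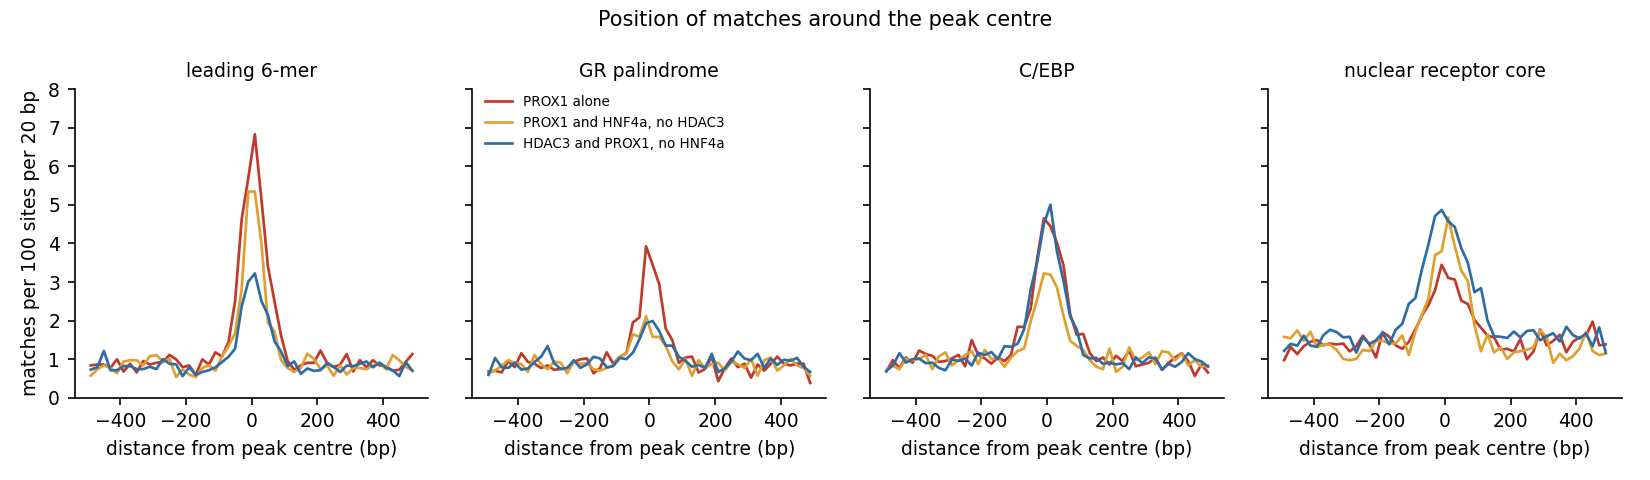
Matches per 100 sites in bins of 20 bp (vertical axis) by distance from the peak centre in bp (horizontal axis) for the leading 6-mer ATCAAT, the GR palindrome, C/EBP and the nuclear receptor core AGGTCA, in 3 classes of PROX1 peaks. All 4 sequences were highest in a bin next to the centre; members (red) had 22.3 copies of the 6-mer per 100 sites in the central 100 bp, and 12.4 GR matches against 6.86 and 7.18 in the other classes.

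The 6-mer and the GR palindrome were centred on the peaks. In the central 100 bp there were 22.3 copies of ATCAAT per 100 members, against 4.24 per 100 bp at 300 to 500 bp from the centre, a ratio of 5.26. The ratio was 4.18 at PROX1-HNF4α sites and 2.76 at HDAC3-PROX1 sites. For GR matches the ratio was 3.05 at members, against 1.65 and 1.58. For C/EBP it was 3.61, 2.44 and 3.69, and for the nuclear receptor core 1.76, 2.43 and 2.42. The plot of matches by distance shows the same counts along the whole 1000 bp.

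Against PROX1-HNF4α sites without HDAC3, 6 of the 27 consensus sequences tested were more frequent at members and 2 less frequent. HNF4, DR1 and the TCF-LEF letters TCAAAG, which lie inside the HNF4 consensus, follow from the rule, so they are not among the 27 and their tests are not read, although they entered the p-value adjustment. C/EBP (TTGCNNAA), bound by the C/EBP family of liver regulators, stood in 25.7% of members and 18.8% of the other class, a difference of 6.90 points (95% CI 4.98 to 8.79, chi-square adjusted p = 1.96e-11). STAT (TTCNNNGAA), the site of the cytokine and growth hormone signalling factors, stood in 12.5% and 7.56% (difference 4.94 points, 95% CI 3.56 to 6.29, chi-square adjusted p = 4.62e-11). HNF1 matches (a palindrome with up to 2 mismatches), for the homeodomain factor of many plasma protein genes, stood in 5.29% and 2.89% (chi-square adjusted p = 2.04e-06), and with 1 mismatch fewer the difference was 0.461 points (adjusted p = 0.0599). C/EBP, STAT and HNF1 matches each had the higher share at members on 19 of 20 chromosomes. NFY (CCAATNA) at 10.2% and 7.90% (chi-square adjusted p = 0.00161) and RBPJ (TGGGAA) at 19.96% and 17.7% (adjusted p = 0.0252) differed by less, and the RBPJ difference was -0.00302 points when HNF4α peaks above the median score alone were counted. The nuclear receptor core AGGTCA, at 22.6% against 26.5% (chi-square adjusted p = 3.17e-04), and SOX (ACAAAGG), at 5.45% against 6.92% (adjusted p = 0.0175), were lower. Both share letters with the HNF4 consensus, so these 2 lower shares cannot be told apart from the rule and are not read as a trait of members. With the stronger HNF4α peaks alone the AGGTCA difference turned to 1.62 points (chi-square adjusted p = 0.295). In windows of at least 45% GC the AGGTCA call was lost (-2.35 points), and under 45% GC those of NFY (1.09 points), RBPJ (1.76 points) and SOX (-1.18 points). RBPJ was also lost at sites over 1 kb from a TSS (1.97 points) and SOX with the stronger HNF4α peaks (-1.45 points). Of the 6 higher sequences, HNF1 and RBPJ stood in 5.915% and 20.4% of HDAC3-PROX1 sites without HNF4α, above their shares in members. Neither of these differences passed the threshold (chi-square adjusted p = 0.218 and 0.6985). C/EBP stood in 26.65% of sites with all 3 factors, also above members, which was not tested. GR, STAT and NFY had lower shares than members in both of these classes. NFY was close at sites with all 3 factors, with 10.04%, and STAT did not pass against HDAC3-PROX1 sites (chi-square adjusted p = 0.104). Differences from sites with all 3 factors were not tested.

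Against HDAC3-PROX1 sites without HNF4α, AGGTCA and its pairs DR2, DR4 and IR1 were less frequent at members. The 2 classes differ by the rule in HDAC3, and the part of the rule in these differences was not tested. AGGTCA stood in 22.6% of members and 31.2% of HDAC3-PROX1 sites, a difference of -8.55 points (95% CI -10.2 to -6.87, chi-square adjusted p = 5.98e-22), and it was lower at members on all 20 chromosomes. DR4, a pair of these letters separated by 4 bases and searched with up to 2 mismatches, which thyroid hormone and liver X receptors bind, stood in 3.56% and 6.46% (chi-square adjusted p = 1.13e-10). The DR2 element of the REV-ERB receptors, which recruit NCoR and HDAC3, was searched with up to 3 mismatches. It stood in 23 members, 0.522%, and in 2.20% of HDAC3-PROX1 sites (chi-square adjusted p = 8.35e-12), and its share in flanks was 0.947%. DR2 and DR4 were lower at members on 20 of 20 chromosomes. IR1, the inverted pair bound by the bile acid receptor FXR, with up to 2 mismatches, stood in 2.31% and 3.91% (chi-square adjusted p = 1.16e-05). The IR1 call was lost with 1 mismatch fewer (-0.275 points) and under 45% GC (-0.942 points).

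Of the other calls in that comparison, 6 were lower at members. SP-KLF (GGGCGGG) stood in 1.16% of members and 2.14% of HDAC3-PROX1 sites (chi-square adjusted p = 2.90e-04), CRE (TGACGTCA with up to 1 mismatch) in 6.31% and 8.16% (adjusted p = 6.40e-04), and NFI, TTGGC and GCCAA separated by 5 bases with up to 2 mismatches, in 13.3% and 16.01% (adjusted p = 3.05e-04). NRF1 (GCGCATGCG with up to 1 mismatch) at 0.499% and 1.03%, ETS (CCGGAAG) at 0.726% and 1.17% and NR5A2-ERR (TCAAGGTCA with up to 1 mismatch) at 13.5% and 14.98% were lower with chi-square adjusted p of 0.00482, 0.0366 and 0.0435. NFY at 10.2% and 8.83% was higher (chi-square adjusted p = 0.0252). The NFY and ETS calls were each lost under 7 of 12 alternatives and the NR5A2-ERR call under 6, with 1 more that changed its sign. With 1 mismatch fewer the CRE and NFI calls were lost (-0.00169 and -0.433 points), and also under 45% GC (-0.406 and -0.893 points). The NRF1 call was lost with 1 mismatch fewer (-0.0381 points), in windows of 100 bp (-0.229 points) and under 45% GC, and the SP-KLF call in windows of 100 bp (-0.307 points). In all, 3 consensus sequences were higher at members and 10 lower. C/EBP did not pass, with 25.7% and 25.1% and a difference of 0.593 points (95% CI -1.06 to 2.26), and STAT did not pass either, with 12.5% and 11.4% (95% CI of the difference -0.104 to 2.38).

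HNF4 letters are given without a test because HNF4α binding defined the members. With up to 2 mismatches they stood in 777 members, 17.6% (95% CI 16.5 to 18.8), against 53.3% at PROX1-HNF4α sites without HDAC3, 39.9% at sites with all 3 factors, 13.5% at HDAC3-PROX1 sites without HNF4α and 9.15% of flanks. The consensus stood in 6 members without a mismatch and in 103 with 1, against 43 and 451 of the smaller class of PROX1-HNF4α sites. A palindrome of the Prospero family of homeodomains, AAGNC joined to GNCTT with up to 1 mismatch, stood in 5.08% of members and 4.57% of flanks (chi-square adjusted p = 0.249) and in 5.68% and 4.23% of the classes with HNF4α and with HDAC3 (adjusted p = 0.328 and 0.0570). Against the flanks, 20 of the 27 consensus sequences were higher at members and 4 lower, led by C/EBP (25.7% against 7.76%, chi-square adjusted p = 2.71e-169).

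Over all canonical 6-mers, 49 were more frequent at members than at PROX1-HNF4α sites without HDAC3 and 64 less frequent, or 2.36% and 3.08% of those tested. The 64 take in stretches of the HNF4 consensus, whose lower shares follow from the rule. Against HDAC3-PROX1 sites without HNF4α, 188 were more frequent and 167 less frequent, or 9.04% and 8.03%. Against the flanks 27.2% were higher and 21.5% lower. The 6-mers furthest above the flanks were ATCAAT with 27.2% against 8.07%, TATTGA with 22.3% against 7.74%, AATCAA with 26.0% against 11.8%, CTTGGC with 24.5% against 10.7%, TGCCAA with 23.3% against 9.98% and CAAACA with 29.4% against 18.6%. Those furthest below were rich in A and T: CATATA with 2.40% against 10.9%, ATACAT with 5.17% against 13.2%, TAAAAA with 17.1% against 24.97%, ATATAA with 5.22% against 13.1%, CACATA with 7.01% against 14.4% and TTAAAA with 17.97% against 25.3%. Apart from the 3 6-mers described above, members exceeded PROX1-HNF4α sites most in CTTGGC, with 24.5% against 19.8%, a part of the NFI site (chi-square adjusted p = 2.05e-04). Next came CAAACA, with 29.4% against 25.2%, letters of the forkhead site (chi-square adjusted p = 0.00372), and CTGGAA, with 24.3% against 20.5% (adjusted p = 0.00418). CTTGGC lost its call with the stronger HNF4α peaks alone (3.16 points), CAAACA in windows both of at least 45% GC (3.28 points) and under 45% GC (4.24 points), and CTGGAA under 4 of 10 alternatives (2.16 to 4.17 points). CTTGGC and CAAACA stood in 23.1% and 30.5% of HDAC3-PROX1 sites, beside the lower shares of PROX1-HNF4α sites without HDAC3. Members were lowest against that class in ACTTTG, with 17.99% against 40.6%. AGTCCA had 14.2% against 34.7%, AAGTCC 12.7% against 30.8%, AAAGTC 15.9% against 33.5%, GTCCAA 10.4% against 21.6% and CTTTGA 19.4% against 29.8%. These 6 are stretches of the HNF4 consensus or run 1 base past it, and so follow from the rule.

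Against HDAC3-PROX1 sites the 6-mers ranked after the ATCAAT group were CTCAAG, with 16.7% of members against 10.9% (chi-square adjusted p = 3.23e-16), AAGAAA, with 27.8% against 22.0% (adjusted p = 3.84e-10), and CTTGGA, with 19.7% against 14.3% (adjusted p = 6.33e-12). CTCAAG had 13.8% at PROX1-HNF4α sites, 10.8% at sites with all 3 factors and 11.8% in flanks. The difference from sites with all 3 factors was not tested. AAGAAA stood in 28.2% of flanks, beside 27.8% of members. CTTGGA stood in 20.7% of PROX1-HNF4α sites without HDAC3, beside 19.7% of members. Members were lower than HDAC3-PROX1 sites in AGGTCA, as above, in GGTCAC with 10.0% against 16.5% and in GGGTCA with 11.2% against 17.0%, which are nuclear receptor letters. They were also lower in CCCCCA with 6.99% against 12.6%, in CTGACC with 15.4% against 20.2% and in CTCCCC with 10.7% against 14.9%. Under 45% GC the calls of GGGTCA (-2.32 points) and CTCCCC (-1.61 points) were lost. Members had a mean GC content of 44.8% ± 5.85 (SD over windows), PROX1-HNF4α sites 45.5% ± 5.72, HDAC3-PROX1 sites 46.1% ± 5.79 and flanks 44.2% ± 7.79.

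PROX1-alone sites were for the most part distal. By their centre, 359 were within 1 kb of a protein-coding TSS, 8.14% (95% CI 7.37 to 8.99), 105 were in an exon (2.38%), 2055 in an intron (46.6%) and 1889 between genes (42.9%). The median distance to a TSS was 20.31 kb, against 17.9 kb at PROX1-HNF4α sites without HDAC3, 17.5 kb at HDAC3-PROX1 sites without HNF4α and 17.6 kb at sites with all 3 factors. The promoter share exceeded that of PROX1-HNF4α sites, 6.79%, by 1.36 points (95% CI 0.125 to 2.55, chi-square p = 0.0309), but only on 12 of 20 chromosomes. That difference was 0.864 points (chi-square p = 0.171) when members with an HNF4α peak within 500 bp were left out and -0.0831 points (p = 0.92) when the stronger HNF4α peaks alone were counted. The promoter share of HDAC3-PROX1 sites was 8.88%, which did not differ past the threshold (difference -0.735 points, 95% CI -1.78 to 0.339, chi-square p = 0.178). With starts of all annotated genes the difference was -1.40 points (chi-square p = 0.0256). CpG-rich windows (GC of at least 50% and an observed over expected CpG ratio of at least 0.6) made up 1.021% of members, against 0.773% (chi-square p = 0.274) and 1.13% (p = 0.605).

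Most members lay within 10 kb of a peak of the other lists (2878, 65.3%), and the shares of some letters differed with that distance. The median distance to the nearest HDAC3 peak was 8.37 kb and to the nearest HNF4α peak 6.71 kb. Of the members, 1009 had either kind of peak within 1 kb and 536 (12.2%) had none within 50 kb. ATCAAT stood in 21.1% (95% CI 18.7 to 23.7) of the members within 1 kb of such a peak, in 25.6% of 1869 at 1 to 10 kb, in 28.9% of 994 at 10 to 50 kb and in 40.9% (95% CI 36.8 to 45.1) of those beyond 50 kb. C/EBP matches went from 21.5% (95% CI 19.1 to 24.1) to 36.0% (95% CI 32.1 to 40.2) over the same bins. GR matches were at 19.7% and 19.8% in the first and last bins and HNF4 matches at 19.1% and 18.1%. The promoter share was 11.6% within 1 kb and 5.41% beyond 50 kb, and mean GC content was 45.9% and 43.0%. The part of base composition in the other changes was not tested.

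**Figure D3:**
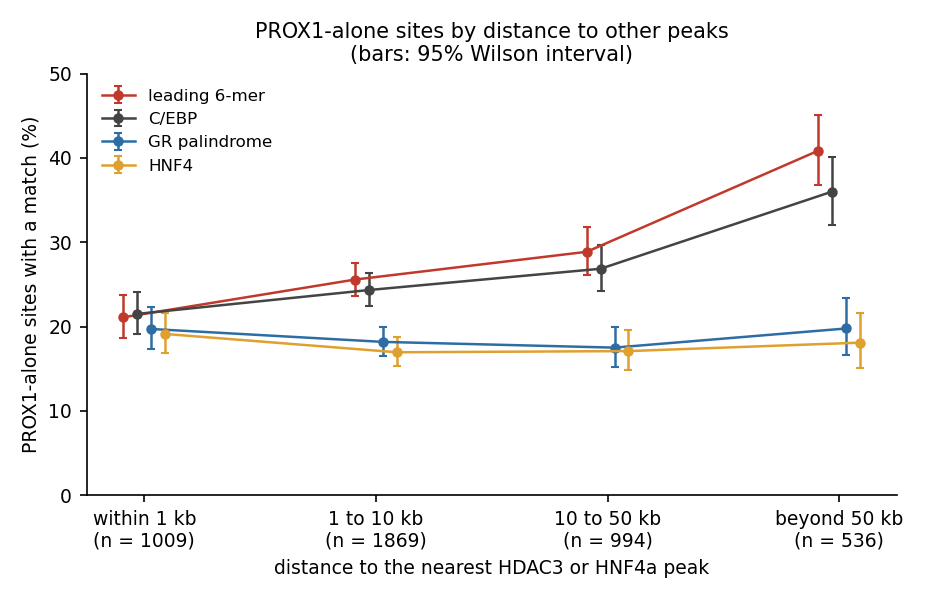
Percent of PROX1-alone sites with a match (vertical axis) by distance to the nearest HDAC3 or HNF4α peak (horizontal axis, 4 bins with their number of sites); error bars are 95% Wilson intervals. The 6-mer ATCAAT went from 21.1% to 40.9% and C/EBP from 21.5% to 36.0%, while GR lay between 17.5% and 19.8% and HNF4 between 17.0% and 19.1%.

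The order of the deposited PROX1 list, which carries no label, also went with these measures. Among PROX1 peaks without HDAC3, the share that were PROX1-alone sites was 47.5% in the first 1477 lines and 73.2% in the last 1476. Within the members, ATCAAT stood in 24.3% (95% CI 22.2 to 26.5) of the first 1470 in the list, 24.98% of the middle and 32.2% (95% CI 29.9 to 34.6) of the last, and GR matches in 16.7%, 18.3% and 20.7%. Mean GC content was 45.3%, 44.9% and 44.2% in the same parts. By location, ATCAAT stood in 21.7% (95% CI 17.8 to 26.3) of promoter members, 24.5% of intronic and 30.9% (95% CI 28.8 to 33.0) of intergenic members, and GR matches in 15.9%, 19.1% and 18.1%.

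Chromosome X stood apart from the autosomes. Of its 301 PROX1 peaks 98 were PROX1-alone sites, 32.6% (95% CI 27.5 to 38.0), against 15.9% (95% CI 15.5 to 16.3) on the autosomes, where single chromosomes ranged from 12.8% to 18.2%. Chromosome X had fewer peaks of every kind, with 1.81 PROX1 peaks per Mb against 11.0 on the autosomes, 0.972 against 8.53 HDAC3 peaks and 1.61 against 9.70 HNF4α peaks. PROX1-alone sites were at 0.588 per Mb there and at 1.42 to 3.11 per Mb on single autosomes. The mice were male and have 1 copy of chromosome X, and the part of copy number in the peak calls was not tested. Members were otherwise scattered, with another member within 1 kb for 291 of them (6.60%) and within 10 kb for 1032 (23.4%).

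Of the 4408 sites, 3797 had a protein-coding TSS within 100 kb, and these spread over 2698 nearest genes, of which 1967 had 1 site and 78 had at least 4. *Tsc22d3* was nearest to the most sites. It encodes GILZ, a leucine zipper protein induced by glucocorticoids, and lies at chrX:137074067-137135198 on the reverse strand. Of its 11 sites 1 is at a promoter, 1 in an intron and 9 lie past its 3′ end, up to 37.2 kb from the nearest start, and 6 of the 11 held a GR match while none held ATCAAT. *Fkbp5*, another textbook glucocorticoid target that encodes a chaperone of the receptor, had 8 sites at chr17:28536040-28654469, of which 7 are intronic and 4 held a GR match. The share of all members with a GR match was 18.6%. Neither locus was free of the other factors: the window of *Tsc22d3*, which took in 3 of its 11 sites, also held 4 HDAC3 and 5 HNF4α peaks and that of *Fkbp5* 16 and 10.

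**Figure D4:**
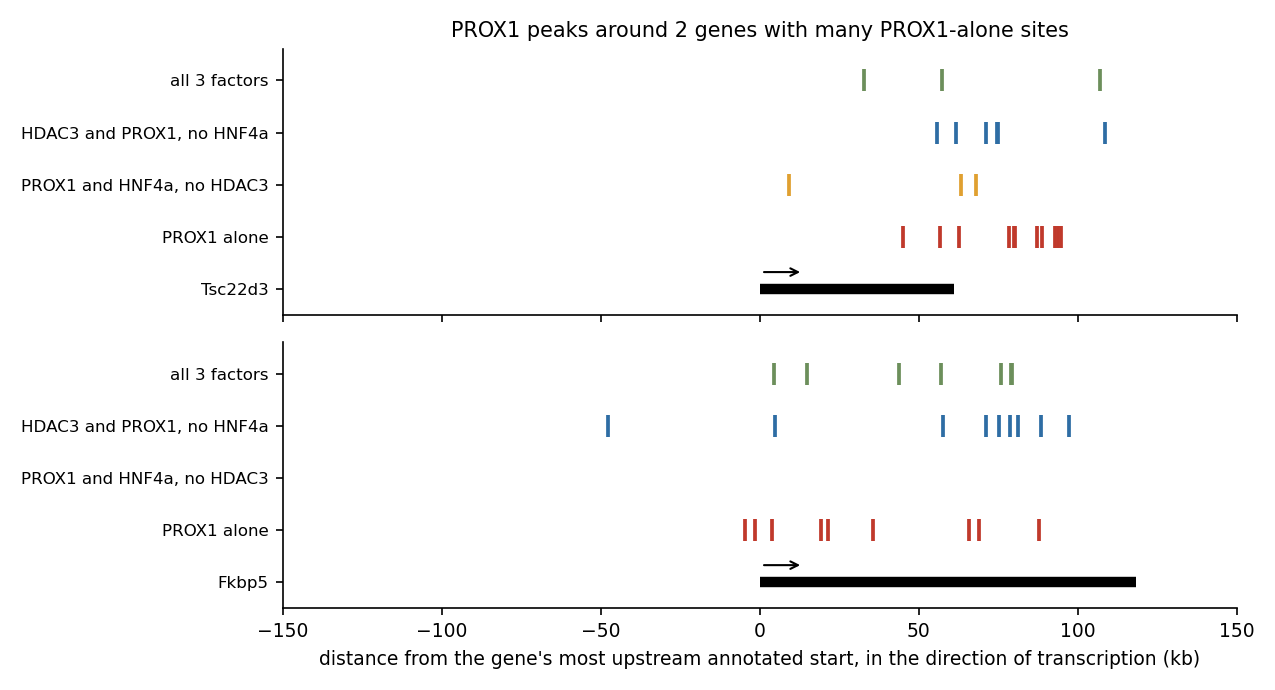
Positions of PROX1 peaks of 4 classes (rows) around *Tsc22d3* and *Fkbp5*, in kb from the most upstream annotated start in the direction of transcription; the black bar is the gene. PROX1-alone sites (red) lie around the 3′ end of *Tsc22d3* and along *Fkbp5*, among peaks with HDAC3.

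The other genes with the most sites have varied functions. *Rere*, a nuclear receptor corepressor gene, had 9 sites, all in introns, of which 4 held ATCAAT and 1 a GR match. *Ptplb*, which encodes an enzyme of very long chain fatty acid synthesis, had 7, of which 4 held a GR match and none ATCAAT. *Rbfox2*, a splicing regulator, had 7, of which 6 are intronic. The remaining 7 genes of this rule had 6 sites each: *Alcam*, an adhesion molecule, *Arid1b*, a subunit of the BAF chromatin remodeller, *Arid5b*, a DNA-binding regulator of fat metabolism, *C1qtnf3*, a secreted adipokine, *Enpp2*, which encodes autotaxin, *Lima1*, a protein of the actin cytoskeleton, and *Mtus1*, a microtubule-associated protein. C/EBP matches stood in 4 of the 6 sites of *Alcam* and 3 of the 6 of *Enpp2*. They stood in none at *Arid5b* and *Ptplb* and in 1 or 2 at each of the other genes of this rule. Over all members the shares were 27.2% for ATCAAT, 18.6% for GR and 25.7% for C/EBP. The windows of all 12 genes also held peaks of HDAC3, from 2 at *Alcam* to 19 at *Mtus1*, and of HNF4α, from 4 at *C1qtnf3* to 21 at *Arid1b*.

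Genes with PROX1-alone sites usually had shared sites as well. Of all 22367 protein-coding genes, 3885, or 17.4%, had at least 1 member between 50 kb upstream of the TSS and 2 kb past the end. Of those, 3051 (78.5%) also had an HDAC3-PROX1 site in that window, against 38.4% of all genes. Seen the other way, a member stood in the window of 35.5% of the 8588 genes with an HDAC3-PROX1 site and of 6.05% of the genes without. Genes with a member had longer windows, with a median of 82.5 kb against 67.4 kb over all genes.

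Members without any HDAC3 or HNF4α peak in the gene window were found at 422 genes, of which 368 had 1 member, 49 had 2 and 5 had 3. Those with 3 were *Ebp*, an enzyme of cholesterol synthesis, *Porcn*, the acyltransferase that modifies Wnt proteins, *Slc24a4*, an ion exchanger, *Spag17*, a protein of cilia, and *Gm6807*, a gene model. *Ebp* and *Porcn* adjoin and share sites, so they are not separate cases. Of the 4 sites nearest to *Gm6807*, 3 held ATCAAT and 2 a C/EBP match. None of the sites nearest to *Spag17*, *Slc24a4* and *Porcn* held ATCAAT. C/EBP matches stood in 2 of the 3 nearest to *Spag17*, 1 of the 3 at *Slc24a4* and 1 of the 2 at *Porcn*. The 1 site nearest to *Ebp* held ATCAAT and no C/EBP match. Over all members the shares were 27.2% for ATCAAT and 25.7% for C/EBP. The genes that follow with 2 were *4930548G14Rik*, *4933407H18Rik*, *6330408A02Rik*, *Atad5*, *Bag3*, *Bmx* and *Bsnd*, the first by symbol of the 49. *Bag3* encodes a chaperone regulator, and its 2 sites are in an intron. *Lss* and *Pfkfb1* are examples from the lists below of genes with PROX1-alone sites, 1 and 3, and no other PROX1 peak in the window. Their windows may still hold HDAC3 or HNF4α peaks, and *Pfkfb1* is not among the 5 genes with 3 named above.

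The gene lists were read against the 17.4% of all protein-coding genes and the 35.5% of genes with an HDAC3-PROX1 site. They carry no test, and longer windows hold more sites. Nuclear receptors had a member at 14 of 32 genes (43.8%, median window 104 kb), led by *Rora* with 7, the activator that competes with REV-ERB, and *Thrb* with 6, the hepatic thyroid hormone receptor. Then came *Nr1h4*, which encodes FXR, *Pparg*, *Nr5a2*, *Esr1* and *Esrrg*, with 4 each. Hepatocyte transcription factors had a member at 13 of 28 (46.4%), led by *Zbtb20* with 6 and *Nfib* with 3, and *Prox1* itself had 1. Of the HDAC3-NCoR complex 3 of 6 genes had a member, *Tbl1x* with 3. Core clock genes had a member at 10 of 22 (45.5%), with *Cry2* at 3 after *Rora*.

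Metabolic lists ran from close to the 17.4% of all genes, for fatty acid oxidation, up to 52.9%, and some were below 35.5%. Gluconeogenesis, glycolysis and glycogen genes had a member at 9 of 17 (52.9%), led by *Pcx*, which encodes pyruvate carboxylase, with 5. Bile acid genes had one at 10 of 20 (50%), led by *Nr5a2* and by *Amacr*, an enzyme of side chain oxidation, with 3. Cytochrome P450 genes had one at 10 of 21 (47.6%), with 3 at *Cyp1a2*, and urea cycle and amino acid genes at 9 of 20 (45%), with 4 at *Tdo2*, the tryptophan dioxygenase that glucocorticoids induce, and 3 at *Asl*. Lipogenesis genes had one at 10 of 24 (41.7%), with 3 at *Acaca*, which encodes acetyl-CoA carboxylase, and 2 each at *Acacb*, *Elovl6* and *Cidec*. Plasma protein genes were at 8 of 24 (33.3%), cholesterol genes at 4 of 15 (26.7%), with 3 at *Fdft1*, squalene synthase, and fatty acid oxidation genes at 4 of 22 (18.2%). All 24 lipogenesis genes and 20 of the 22 fatty acid oxidation genes had an HDAC3-PROX1 site.

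Signalling and adhesion lists had the highest shares, with median windows above that of all genes. Cell adhesion, junction and cytoskeleton genes had a member at 15 of 24 (62.5%, median window 124 kb), with 3 at *Cdh1*, an epithelial cadherin. Wnt, Notch, TGF-beta and Hippo genes had one at 17 of 30 (56.7%, 134 kb), led by *Lgr4*, an R-spondin receptor, with 5 and *Tcf7l2*, a Wnt effector, with 4. Growth factor and insulin signalling genes had one at 14 of 26 (53.8%, 106 kb), led by *Fgfr2* with 12 in an annotated window of 3061 kb and *Pik3r1*, the regulatory subunit of PI3 kinase, with 5 in 139.5 kb. Cell cycle genes had one at 4 of 20 (20%).

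Marker lists of the cell types of the liver were checked in the same way. Hepatocyte markers had a member at 3 of 10 genes (*Apob*, *Cyp2e1* and *Hnf4a*, 1 each), and all 10 had an HDAC3-PROX1 site. Markers of sinusoidal endothelium had a member at 5 of 10, with 4 at *Stab2*, a scavenger receptor, and 6 of the 10 had an HDAC3-PROX1 site. Lymphatic endothelium, which expresses PROX1, had a member at 2 of 10 (*Lyve1* and *Nrp2*), and cholangiocytes at 2 of 10. Macrophage, stellate cell and lymphocyte markers had a member at 1 of 10 each. These counts of positions do not measure expression, and the part of other cell types in the members was not tested.

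**Figure D5:**
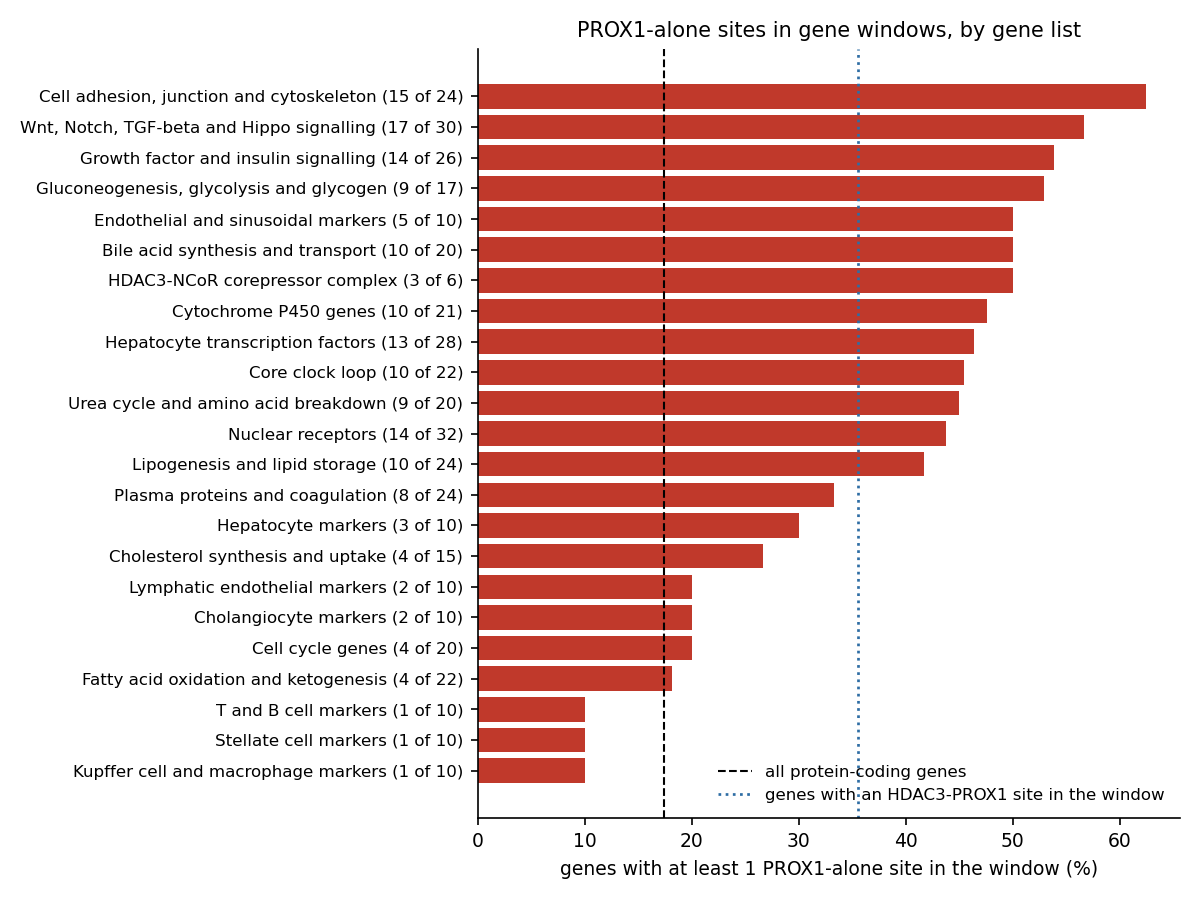
Percent of the genes of each list with at least 1 PROX1-alone site between 50 kb upstream of the TSS and 2 kb past the end (horizontal axis), with counts beside the names. The dashed line is all protein-coding genes (17.4%) and the dotted line genes with an HDAC3-PROX1 site in that window (35.5%); adhesion and signalling lists were highest, at 53.8% to 62.5%.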

How the data were processed

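The deposited files were 3 peak lists on mm9. Per the study's methods, the authors aligned reads with Bowtie 0.12.7, removed duplicates, pooled the libraries of each factor and called peaks with HOMER against IgG. Peaks were over 3-fold over input and over 2 rpm for PROX1 and HNF4α and 1.5 rpm for HDAC3. Co-binding needed 1 rpm of the other factor, and the HNF4α list is described as filtered on the knockout. The PROX1 and HDAC3 lists hold positions alone, and the deposited HNF4α list also holds a HOMER score whose scale the file does not give, so depth is unknown.

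From these lists, 200 bp windows at peak centres were read from NCBIM37 with the GENCODE M1 annotation, using Python 3.11.15, numpy 2.4.6, scipy 1.17.1 and pandas 2.3.3. Flanks were windows 2 kb to either side that touch no peak of the 3 lists (8450). A motif was counted once per window, on either strand. Shares were compared by two-sided Pearson chi-square tests over peaks, with Benjamini-Hochberg adjustment over 30 motifs in 3 comparisons and separately over all 6-mers within each comparison, at an adjusted p of 0.05. The scripts were tested on simulated data.

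The named genes were the 12 nearest to the most members, the 12 with the most members in a window free of HDAC3 and HNF4α peaks, and the members of the gene lists with the most sites. The named 6-mers were the 6 with the largest difference in each direction. The sites, gene lists and motifs were chosen with earlier results of these data known. Printed windows exclude exons and chromosome 18. The PROX1 and HDAC3 lists each held 3 empty lines, which were left out, and the runs of lines between them are called blocks here. Some items chosen by these rules are not reported here.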

Additional observations from a re-analysis of the deposited data

How the results depend on the processing

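No paired analysis was possible because the lists were pooled over libraries and carry no replicate, and leaving out a library was not possible for the same reason. The lists give no reads, depth is unknown, and peaks are not independent. Under 14 alternatives, 444 values of named motifs and 6-mers kept their direction and their side of the threshold, 50 lost the call and 4 changed sign. The signs that changed were of the AGGTCA core (1.62 points) and RBPJ (-0.00302 points) against PROX1-HNF4α sites when HNF4α peaks above the median score alone counted, NR5A2-ERR (0.476 points, 1 mismatch fewer) and NRF1 (0.0423 points, windows under 45% GC) against HDAC3-PROX1 sites. ATCAAT kept its call against HDAC3-PROX1 sites throughout (7.70 to 11.5 points), as did GR against both classes (1.84 to 7.25 points). Alternatives by GC content, by the first block of co-bound peaks and by copies of ATCAAT were chosen after seeing the data.

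The number of 6-mers called against HDAC3-PROX1 sites was 355, but 225 in windows of 100 bp, 154 in windows of at least 45% GC and 109 under 45% GC. Against PROX1-HNF4α sites it was 113, but 35 and 42 in those GC ranges, where fewer windows were tested. The 113 take in stretches of the HNF4 consensus, which follow from the rule. Motifs called against HDAC3-PROX1 sites numbered 13, but 8 with 1 mismatch fewer and 8 under 45% GC, and against PROX1-HNF4α sites 8, but 5 under 45% GC. Those 8 take in AGGTCA and SOX, which share letters with the HNF4 consensus. The promoter difference from PROX1-HNF4α sites, 1.36 points, was -0.0831 with the stronger HNF4α peaks alone and 0.864 without members within 500 bp of an HNF4α peak. That from HDAC3-PROX1 sites, -0.735, was 0.315 with the first block of co-bound peaks alone and -1.40 with starts of any annotated gene. The CpG-rich difference, -0.104, was 0.131 with the first block and 0.102 at 45% GC or more. The cause of these changes was not tested. A repeat-masked alternative was not run, because the genome used here is not masked, and CpG-rich shares under 45% GC gave no value.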
